A study of Mus musculus with 2 samples.

Results

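The Slc25 genes encode the mitochondrial carriers, proteins of the inner mitochondrial membrane that exchange nucleotides, phosphate, amino acids, carboxylates, cofactors and iron between the cytosol and the mitochondrial matrix. Most are built from repeated units that each carry a short signature beginning with proline and an acidic residue, and a few members work in the outer membrane or in peroxisomes. In the fetal liver, where red cells mature, carriers for iron, glycine and glutathione feed haem and iron-sulfur cluster synthesis, while hepatoblasts, the precursors of hepatocytes, use carriers for citrate, aspartate and ornithine. The members were all protein-coding genes whose symbol is Slc25a followed by a number. This rule found 47 genes among 43346 mouse genes, of which 21474 are protein-coding.

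Total RNA was sequenced from livers of B6NCrl mouse embryos at embryonic day 11.5, with male and female embryos pooled. The single group held 2 libraries made from 10 ng of RNA each, replicate 1 from a pool of 109 embryos and replicate 2 from a pool of unstated size. With no treated, mutant or control group, the data describe levels and how far the pools differ, and test no condition. The labels call the libraries biological replicates and give both the same donor identifier, so their spread covers these 2 pools only.

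Estimated counts summed to 34344230 in replicate 1 and 31477397 in replicate 2. TPM, a transcript share corrected for length, is relative to all features of a library, of which control RNAs spiked in at library making held 14.6% in replicate 1 and 11.1% in replicate 2. Markers of the tissue were present: the 6 erythroid markers were all detected (median 254 TPM in replicate 1 and 297 TPM in replicate 2), as were the 6 hepatoblast markers (1185 and 1196 TPM). All 4 macrophage and all 4 endothelial markers were detected too, so a level is that of the mixed tissue. In bulk tissue, fewer cells of a type and less RNA per cell cannot be told apart. The 6 heart muscle markers were higher in replicate 1, and their summed level was 265 TPM in replicate 1 and 115 TPM in replicate 2. None of them was at 0. The 4 skeletal muscle markers summed to 30.2 TPM in replicate 1 and 26.5 in replicate 2, with Myh3 under a TPM of 1. They did not move together. Acta1 had 4.82 TPM in replicate 1 and 2.03 in replicate 2, while Myh3 had 0.30 and 0.63 TPM. Tnnt1 (21.1 and 20.2 TPM), most of the sum, and Myog (4 and 3.66 TPM) were closer between the libraries.

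The carrier signature is described here at the base level. It was searched in the translated coding sequence of each member's leading complete coding transcript (GENCODE release M21, GRCm38), as proline, any residue, an acidic residue, any 2 residues and then lysine or arginine. All 47 members had such a transcript, and the proteins ranged from 265 to 677 residues. The strict pattern occurred 3 times in 27 members, 2 times in 12 and 1 time in 5, and was absent from 3 (Slc25a46, Slc25a51 and Slc25a53). No match says only that these residues do not occur in that order. The lines show the first signature of the abundant adenine nucleotide carriers, of the iron, glutathione and glycine carriers, and of their less abundant relatives. The lines were selected by the pattern, so they share its fixed residues by construction and do not measure relatedness. Capitals mark the bases that encode the 6 residues of the signature, and lower case marks 6 coding bases on each side.
Slc25a5: gtagcaCCCATCGAGAGGGTCAAGctgctg
Slc25a4: gtcgccCCGATCGAGAGGGTCAAActgctg
Slc25a31: gtggcgCCCATCGAGCGTGTGAAGctgctg
Slc25a37: atgtacCCGGTGGACTCCGTGAAGacacgg
Slc25a28: atgtacCCGATCGACTGCGTCAAGacccgg
Slc25a39: atgacaCCCCTGGATGTGGTGAAGgtccgc
Slc25a40: gtgactCCCCTGGATGTTGTTAAAattcga
Slc25a38: ttccagCCTTTGGATCTCCTCAAAacccgt

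Most of the family was expressed in the embryonic liver. Detection was set at a TPM of at least 1 in each library, and 39 of 47 members met it, against 56.6% of all protein-coding genes. The remaining 8 members lay under a TPM of 1 in both libraries. The family median was 11.8 TPM in replicate 1 and 14.3 TPM in replicate 2, against 2.82 and 2.87 TPM over all protein-coding genes. The median member stood at percentile 67.8 of protein-coding genes, and 8 members lay in the top 10%. These values describe the list and were not tested. Together the members made up 0.325% of protein-coding TPM in replicate 1 and 0.335% in replicate 2.

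The family total rested on few genes. By mean TPM, 7 members lay at 100 or more, 18 between 10 and 100, 14 between 1 and 10 and 8 below 1. The 3 most abundant members held 53.3% of the family's TPM in replicate 1 and 52.8% in replicate 2, and the 10 most abundant held 82.7% and 81.9%. Between the highest detected member and the lowest, mean TPM spanned 633-fold.

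**Figure D1:**
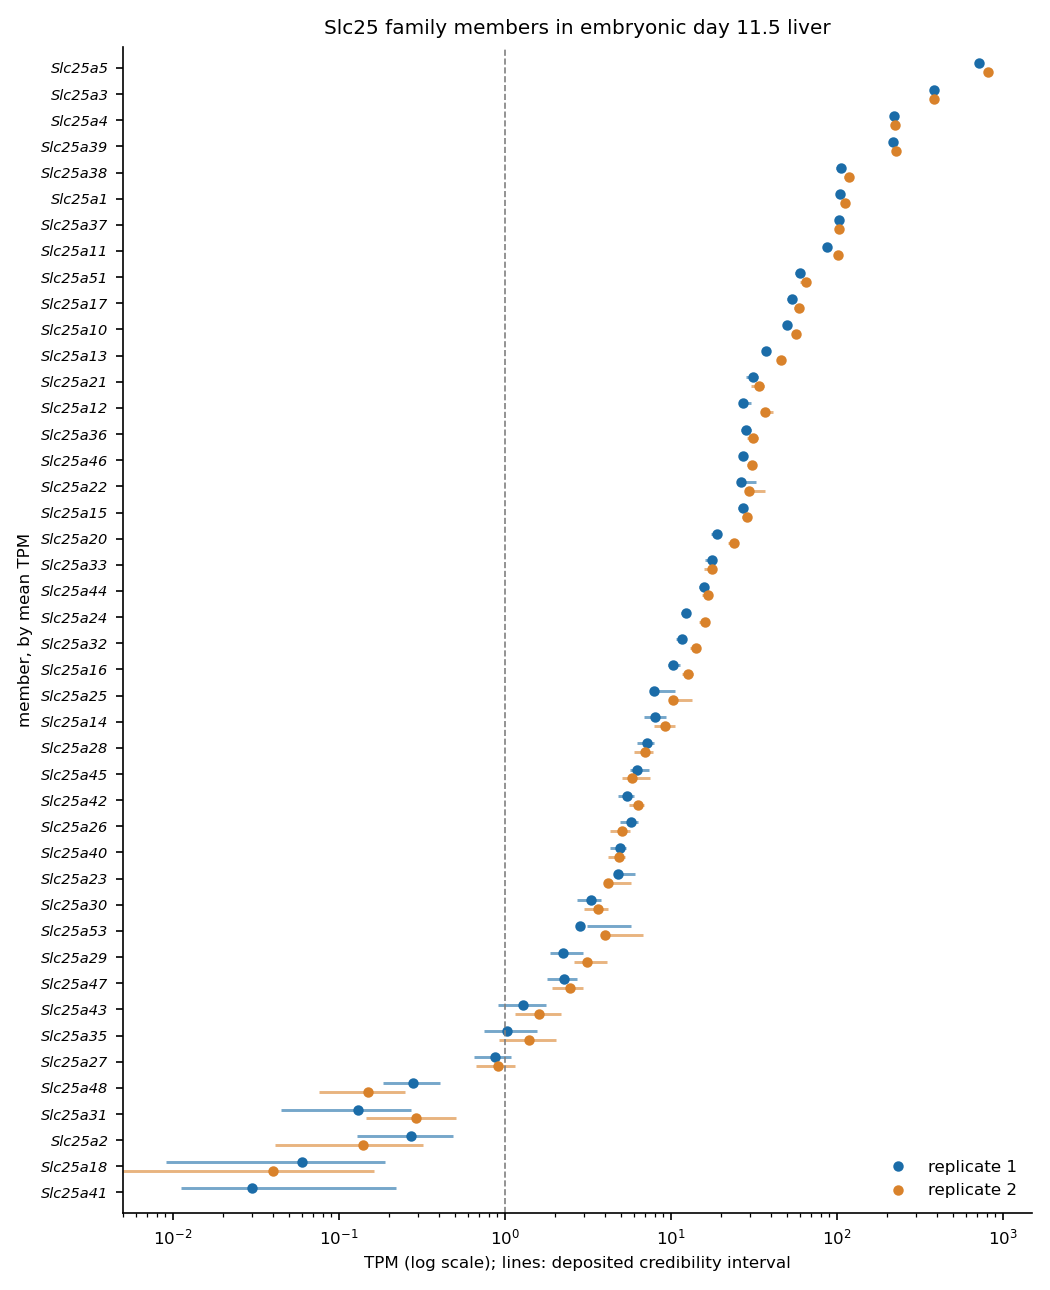
TPM on a log scale (horizontal) of 44 members with at least 1 count in either library, ordered by mean TPM, with points for replicate 1 (blue) and replicate 2 (orange) and lines for the deposited credibility interval. The dashed line marks a TPM of 1. Slc25a5, Slc25a3, Slc25a4 and Slc25a39 lie above 200 TPM in both libraries, and the 6 lowest members lie below the dashed line.

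Adenine nucleotide and phosphate carriers led the family. Slc25a5, which exchanges ADP for ATP (ENSMUSG00000016319.3, chromosome X, 36795651 to 36798807), had 719 TPM in replicate 1 and 813 TPM in replicate 2. Slc25a3, which imports phosphate for ATP synthesis and also carries copper (ENSMUSG00000061904.8, chromosome 10, 91116574 to 91124059), had 383 and 386 TPM. Slc25a4, the ADP/ATP carrier known for its high level in heart and skeletal muscle (ENSMUSG00000031633.4, chromosome 8, 46206797 to 46211284), had 222 and 225 TPM. Slc25a5 was the highest member in both libraries and stood at percentile 99.4 of protein-coding genes. It exceeded Slc25a4 by a log2 ratio of TPM of 1.77 ± 0.11 (SD, n = 2), or 3.42-fold. The proteins of this pair share 89.6% of residues and their coding sequences 77.9% of bases. The other ADP/ATP carrier measured, Slc25a31, known from the testis, had only 5 counts in replicate 1 and 10 in replicate 2, or 0.13 and 0.29 TPM.

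Reads of Slc25a5 can also fall on processed pseudogenes, copies of its messenger RNA inserted elsewhere in the genome. A search for stretches of at least 100 bases at 95% identity found 3 such pseudogenes. Their estimated counts summed to 19.6 in replicate 1 and 13.4 in replicate 2, against 21111 and 20841 counts of Slc25a5 itself. The model that shared out the reads therefore left nearly all of them with the parent gene, but the true split cannot be told from the tables.

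Carriers of iron and glutathione were the next most abundant group, with 13.4% of the family's TPM in replicate 1 and 12.7% in replicate 2. Slc25a39, which imports glutathione (ENSMUSG00000018677.5, chromosome 11, 102402985 to 102407946), had 217 TPM in replicate 1 and 228 TPM in replicate 2. Its relative Slc25a40 had 4.92 and 4.84 TPM, a log2 ratio of 5.48 ± 0.07 (44.6-fold) in favour of Slc25a39. These proteins share 48.1% of residues. Slc25a37, or mitoferrin 1, which imports iron into mitochondria of maturing red cells (ENSMUSG00000034248.7, chromosome 14, 69241848 to 69285112), had 102.8 and 102.7 TPM. Slc25a28, or mitoferrin 2, which serves other tissues, had 7.23 and 7.03 TPM. Mitoferrin 1 exceeded mitoferrin 2 by 3.83 ± 0.03 on the log2 scale (14.2-fold), and the proteins share 62.2% of residues. In both pairs the libraries gave the same order and their ranges were far apart.

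Slc25a38 supplies glycine for the first step of haem synthesis (ENSMUSG00000032519.7, chromosome 9, 120110374 to 120124504). It had 105 TPM in replicate 1 and 118 TPM in replicate 2. Against Slc25a37 the log2 ratio was 0.12 ± 0.12, so the glycine carrier and mitoferrin 1 could not be ordered. This was the only one of 21 pairs of related or linked carriers in which the order did not hold by the rule used. The rule asked for the same order in each library, for deposited credibility intervals that stayed apart in each, and for a mean log2 ratio larger than the gap between the libraries. Ratios of pairs were taken as log2 of TPM with a pseudocount of 0.1, which understates the ratio to a low member.

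Partners of these carriers in haem and iron-sulfur cluster synthesis were detected in 13 of 13 cases (median 101 TPM in replicate 1 and 108 in replicate 2). The highest were Tmem14c, which moves a haem precursor into mitochondria, at 721 ± 28.9 TPM, Glrx5, which acts in iron-sulfur cluster assembly, at 555 ± 18.9 TPM, and Cpox, a late enzyme of haem synthesis, at 272 ± 17.5 TPM (mean ± SD, n = 2). The machinery for the import of carriers was detected in 8 of 8 genes (median 67.7 and 70.3 TPM). It was led by Timm10b at 165 ± 0.38 TPM, Tomm70a at 83.6 ± 12.4 TPM and Tomm20 at 73.5 ± 2.22 TPM. Of 17 other mitochondrial transporters 15 were detected. They were led by Ucp2, a carrier of the same fold that lies outside the symbol rule (429 ± 8.73 TPM), followed by the outer membrane channels Vdac2 (249 ± 16.7 TPM) and Vdac3 (234 ± 11.96 TPM). Only 2 of the 17 were under a TPM of 1. Ucp1, the uncoupler of brown fat, had 0 counts in both libraries, and Ucp3 had 0 counts in replicate 1 and 2 in replicate 2.

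Carboxylate and carnitine carriers were all detected (5 of 5) and made up 11.8% of the family's TPM in replicate 1 and 12.1% in replicate 2. Slc25a1, which exports citrate for lipid synthesis, had 105 TPM in replicate 1 and 112 TPM in replicate 2. Slc25a11, which exchanges oxoglutarate for malate, had 87.5 and 101 TPM. The dicarboxylate carrier Slc25a10 had 49.9 and 56.7 TPM, and Slc25a11 exceeded it by 0.82 ± 0.02 on the log2 scale (1.77-fold). Slc25a21, which carries longer oxo acids, had 32.6 ± 1.90 TPM. Slc25a20, which brings acylcarnitines in for fatty acid oxidation, had 19.1 TPM in replicate 1 and 24.1 TPM in replicate 2, against 2.23 and 3.12 TPM of Slc25a29, a related carrier of basic amino acids (log2 ratio 2.98 ± 0.09, 7.87-fold).

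Amino acid carriers were detected in 7 of 9 cases. Slc25a13, or citrin, exchanges aspartate for glutamate and is the form known from liver. It had 37.3 TPM in replicate 1 and 45.8 TPM in replicate 2. Slc25a12, or aralar, the form known from brain and muscle, had 27.3 and 36.7 TPM. At the gene level citrin was higher by 0.38 ± 0.09 on the log2 scale (1.30-fold), a difference that changes with the transcripts counted, as described with the isoforms. The proteins share 76.5% of residues. The glutamate carrier Slc25a22 had 26.6 TPM in replicate 1 and 29.7 TPM in replicate 2. Its relative Slc25a18 had 2 counts in replicate 1 and 1 in replicate 2, too few for a fold. The ornithine carrier Slc25a15, a part of the urea cycle, had 27.2 TPM in replicate 1 and 28.7 TPM in replicate 2. The related Slc25a2 had 9 counts in replicate 1 and 4 in replicate 2, or 0.27 and 0.14 TPM. Slc25a44, which carries branched-chain amino acids, had 16.2 ± 0.64 TPM.

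Nucleotide and cofactor carriers were detected in 9 of 9 cases and held 8.70% of the family's TPM in replicate 1 and 8.72% in replicate 2. Slc25a51, which imports NAD+, had 60.2 TPM in replicate 1 and 65.1 TPM in replicate 2. Slc25a17, a carrier of the peroxisome membrane for coenzyme A and other cofactors, had 53.6 and 59.4 TPM. The pyrimidine nucleotide carrier Slc25a33 had 17.7 TPM in replicate 1 and 17.6 TPM in replicate 2, against 28.5 and 31.2 TPM of its relative Slc25a36, a log2 ratio of -0.75 ± 0.10. Slc25a16, linked to coenzyme A, had 10.3 TPM in replicate 1 and 12.6 TPM in replicate 2, against 5.44 and 6.34 TPM of the coenzyme A carrier Slc25a42 (log2 ratio 0.94 ± 0.05). The folate carrier Slc25a32 had 13.0 ± 1.77 TPM, and Slc25a26, which imports S-adenosylmethionine, had 5.40 ± 0.48 TPM.

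The smaller groups were mostly at lower levels. Of the carriers that exchange ATP-Mg for phosphate under control of calcium, Slc25a24 had 12.4 TPM in replicate 1 and 16.0 TPM in replicate 2, Slc25a25 had 7.94 and 10.3 TPM, and Slc25a23 had 4.82 and 4.20 TPM. Slc25a24 exceeded Slc25a23 by 1.62 ± 0.40 and Slc25a25 by 0.63 ± 0.004 on the log2 scale. By the deposited posterior mean TPM these ratios were 1.42 and 0.42, so the small SD does not cover the choice of estimate. The related Slc25a41 had 1 count in replicate 1 and none in replicate 2. Among members related to uncoupling proteins, Slc25a14 had 8.05 TPM in replicate 1 and 9.17 TPM in replicate 2, Slc25a30 had 3.30 and 3.65 TPM, and Slc25a27 had 0.87 and 0.91 TPM. Each of these 3 was above the next in both libraries, by 1.28 ± 0.03 and by 1.85 ± 0.06 on the log2 scale. Slc25a46, an outer membrane protein that acts in mitochondrial division, had 27.4 TPM in replicate 1 and 30.8 TPM in replicate 2.

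Members with other or unassigned substrates were mostly near the detection level. Slc25a45 had 6.21 TPM in replicate 1 and 5.85 TPM in replicate 2, Slc25a53 had 2.82 and 4.03 TPM, and Slc25a47, known from adult hepatocytes, had 2.28 and 2.46 TPM. Slc25a43 had 1.29 TPM in replicate 1 and 1.61 in replicate 2, and Slc25a35 had 1.03 and 1.39 TPM. Slc25a45 exceeded Slc25a47 by 1.31 ± 0.13 and Slc25a48 by 4.31 ± 0.37 on the log2 scale. Slc25a51 exceeded its relative Slc25a53 by 4.17 ± 0.27. Slc25a54 and Slc25a34 had no counts in either library. The limit that a count of 0 allows, 3 counts, corresponds to 0.078 TPM in replicate 1 and 0.089 in replicate 2 for Slc25a54, and to 0.045 and 0.052 TPM for Slc25a34. No fold is given for the pairs of Slc25a23 with Slc25a41 or of Slc25a35 with Slc25a34.

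**Figure D2:**
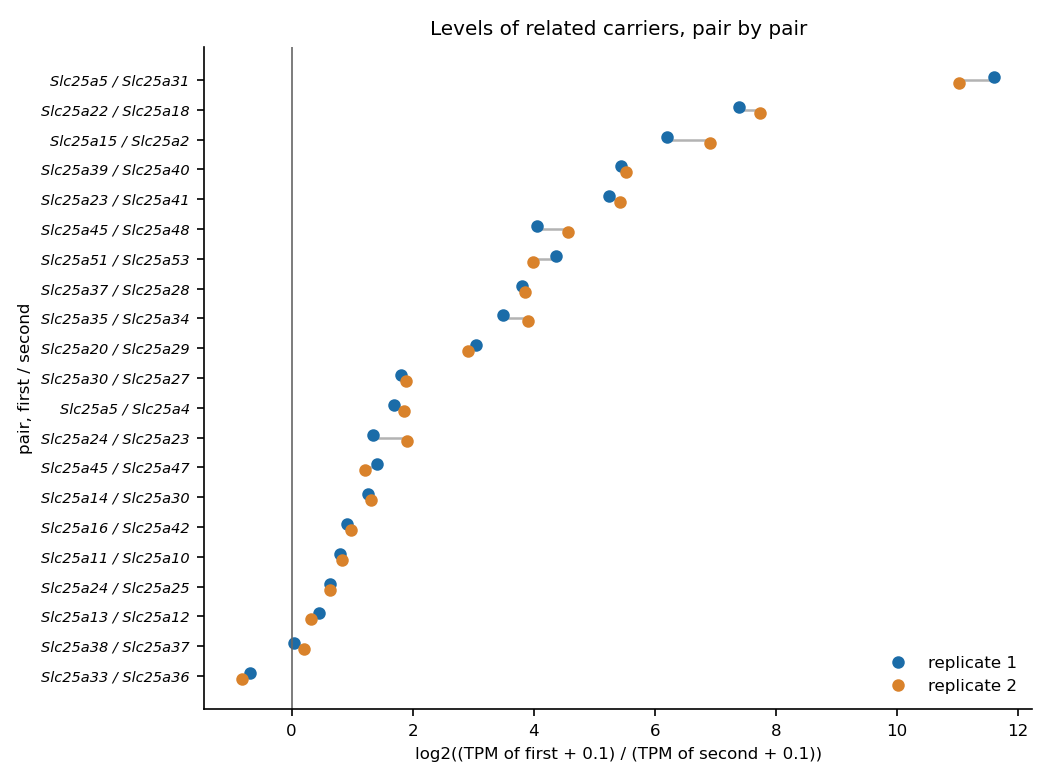
Log2 ratio of TPM, with a pseudocount of 0.1, for 21 pairs of carriers (first over second), with replicate 1 in blue and replicate 2 in orange. Of these, 20 pairs keep one side of 0 by more than the gap between the libraries, and Slc25a38 / Slc25a37 (0.04 and 0.20) does not. Ratios to Slc25a18, Slc25a41 and Slc25a34 rest on 3 counts or fewer and depend on the pseudocount.

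Neighbours in the order of levels were not always distinct. Among the 15 most abundant members, 5 of the neighbouring pairs had library ranges that overlapped: Slc25a4 and Slc25a39, Slc25a38 and Slc25a1, Slc25a17 and Slc25a10, Slc25a21 and Slc25a12, and Slc25a12 and Slc25a36. The ranges of the other neighbouring pairs did not overlap. Within each library Slc25a38 still lay above Slc25a1, and Slc25a17 above Slc25a10. The remaining overlapping pairs changed order between the libraries. Members next to each other in the genome were at unlike levels in several cases. Slc25a43 and Slc25a5 lie 18448 bases apart on chromosome X, on the same strand, and had 1.45 and 766 TPM on average. Slc25a54 had no counts and lies 6461 bases from Slc25a24 (14.2 TPM) on chromosome 3. The divergent neighbours Slc25a29 and Slc25a47, 162 bases apart on chromosome 12, had 2.67 and 2.37 TPM.

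The libraries differed little across the family. For this, estimated counts were scaled with edgeR TMM factors, and a gene was called different at 1.5-fold or more with a mean of at least 10 counts. Of the 41 members with enough counts, 1 was called higher in replicate 1, where 4.87% of 14394 protein-coding genes were, and 0 in replicate 2, where 3.22% were. In either direction the share was 8.09% of protein-coding genes. With 1 library on each side, these calls have no replicate check and no p-value. Slc25a48 was the called member, with 24 counts in replicate 1 and 11 in replicate 2. Its log2 ratio was 0.98, and the 95% exact binomial interval ran from -0.07 to 2.19, an interval that includes 0. The SD of the log2 ratio was 0.225 over the members and 0.397 over protein-coding genes. These comparisons were not matched for counts, and low counts widen the ratios. A mean of at least 100 counts was reached by 36 of the 41 members and by 11519 of the 14394 protein-coding genes. The interval left out 0 for 17 of 41 members, against 40.7% of protein-coding genes, a share near the background. Of these 17 members, 5 were higher in replicate 1 and 12 lower, and the matching split over protein-coding genes was not computed. On TPM, which the spike-in share lowers in replicate 1, Slc25a3 and Slc25a4, higher by scaled counts, were lower in replicate 1. The largest ratios among the 17 were those of Slc25a53 (log2 ratio -0.43, interval -0.76 to -0.10), Slc25a45 (0.30, interval 0.05 to 0.55), Slc25a24 (-0.29, interval -0.41 to -0.17), Slc25a25 (-0.27, interval -0.42 to -0.11) and Slc25a23 (0.27, interval 0.05 to 0.49). They lay on both sides of 0, and all were under 1.5-fold.

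The heart muscle markers stood apart from the members in the same comparison. Their log2 ratios ran from 1.10 (Myl7) to 2.19 (Nppa), all 6 above 0, with a median of 1.63. Slc25a4, the ADP/ATP carrier abundant in heart, had a log2 ratio of scaled counts of 0.07 (interval 0.03 to 0.11), while its TPM was 222 in replicate 1 and 225 in replicate 2.

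**Figure D3:**
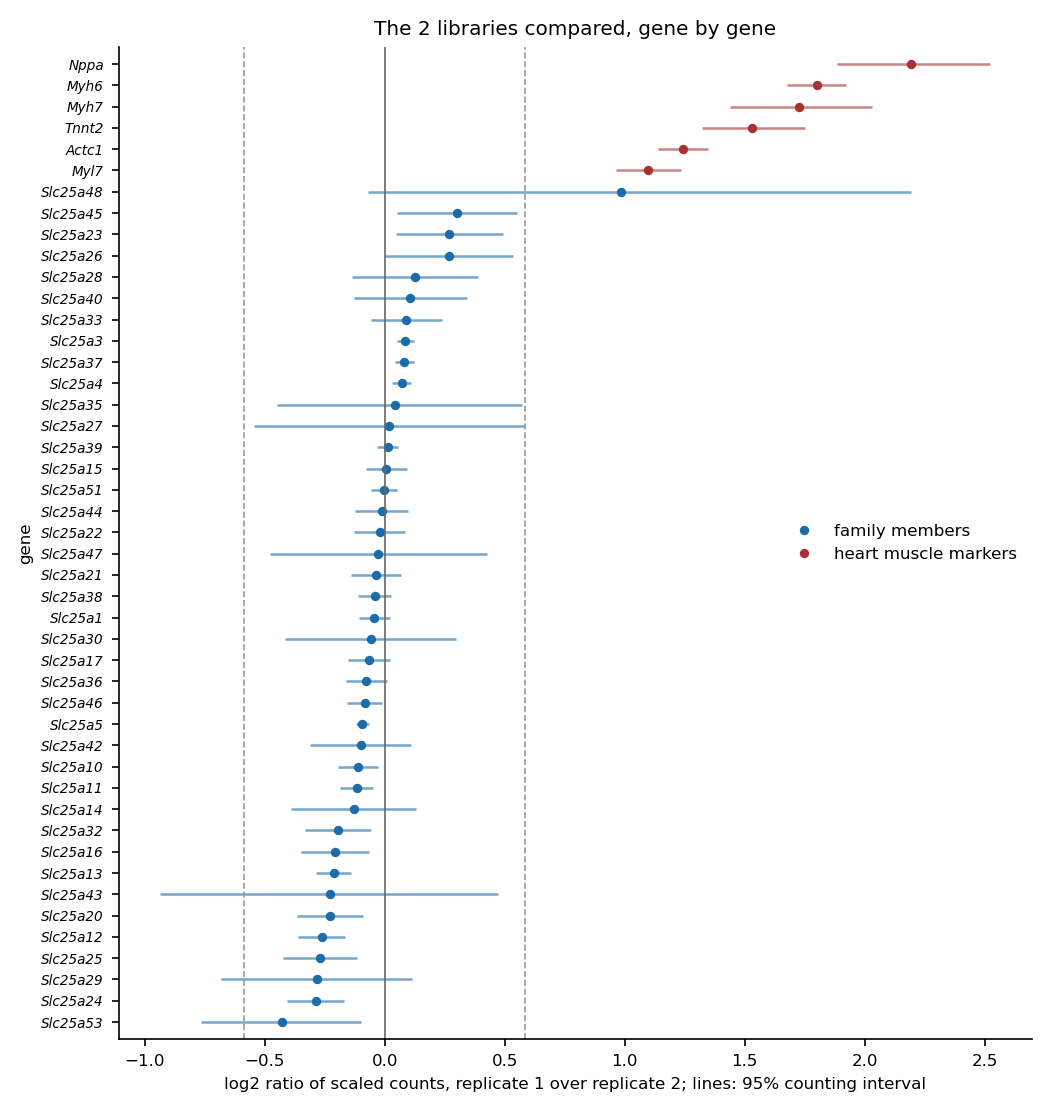
Log2 ratio of scaled counts, replicate 1 over replicate 2, with 95% counting intervals, for 40 members with a mean of 10 or more counts (blue) and the 6 heart muscle markers (red). Dashed lines mark 1.5-fold. Every member shown except Slc25a48 lies between the dashed lines, and every heart marker lies right of them, from 1.10 to 2.19.

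Transcripts were compared for the 25 members at a mean of 10 TPM or more, from the deposited percent of a gene's TPM carried by each transcript. The same transcript led in both libraries for 25 of 25 members, and for 24 of them it was annotated as protein-coding. For 5 of the 25 members only 1 transcript was listed, so their agreement and their transcript shares were fixed in advance. In 12 members, those 5 among them, the leading transcript carried more than 90% in both libraries. The median share of non-coding transcripts was 2.58%. That share was 25% or more in 4 members, and how common this is over all genes was not computed. Apart from Slc25a12, these were Slc25a22 with 38.6% in replicate 1 and 37.0% in replicate 2, Slc25a36 with 33.3% and 34.5%, and Slc25a38 with 29.1% and 31.0%. In Slc25a22 most of it was annotated as retained intron (26.7% in replicate 1 and 26.6% in replicate 2). In Slc25a38 it lay mostly in short processed transcripts (24.0% and 26.4%). Short transcripts weigh more in TPM than in counts. Slc25a38-207, of 492 bases, had 14.8% of the gene's TPM in replicate 1 from 158 of its 3474 counts.

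Slc25a12 was the exception among these 25 members, since most of its expression was assigned to transcripts without a full coding sequence. Non-coding classes took 91.8% in replicate 1 and 93.1% in replicate 2. The leading transcript, Slc25a12-207, belongs to the annotated nonsense-mediated decay class, in which an early stop codon marks a messenger RNA for degradation. It had 20.2 TPM (deposited interval 18.1 to 20.7) in replicate 1 and 26.2 TPM (23.4 to 26.7) in replicate 2. The coding transcript Slc25a12-206 had 2.23 TPM (1.87 to 2.51) in replicate 1 and 2.52 TPM (2.11 to 2.83) in replicate 2. Its part is larger by estimated counts, which are not corrected for length. It held 361 of 1614 counts in replicate 1 and 355 of 1792 in replicate 2. Slc25a12-207 lacks a coding exon of 116 bases, shown because its length is not a multiple of the codon length (chr2:71333605-71333720, GRCm38, minus strand, no capitals).
Slc25a12 exon: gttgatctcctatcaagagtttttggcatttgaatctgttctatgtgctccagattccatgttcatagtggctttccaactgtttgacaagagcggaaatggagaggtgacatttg
The transcripts also differ at their end: the last exon has 664 bases in Slc25a12-207 and 4291 bases in Slc25a12-206. The estimate can rest on either difference, and which of them drew the reads was not tested. Counting protein-coding transcripts alone, citrin exceeded aralar by 4.06 on the log2 scale, against 0.38 for the whole genes. The same count put Slc25a33 closer to Slc25a36 (log2 ratio -0.16) and left Slc25a53 at 0.06 TPM in replicate 1 and 0.02 in replicate 2.

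**Figure D4:**
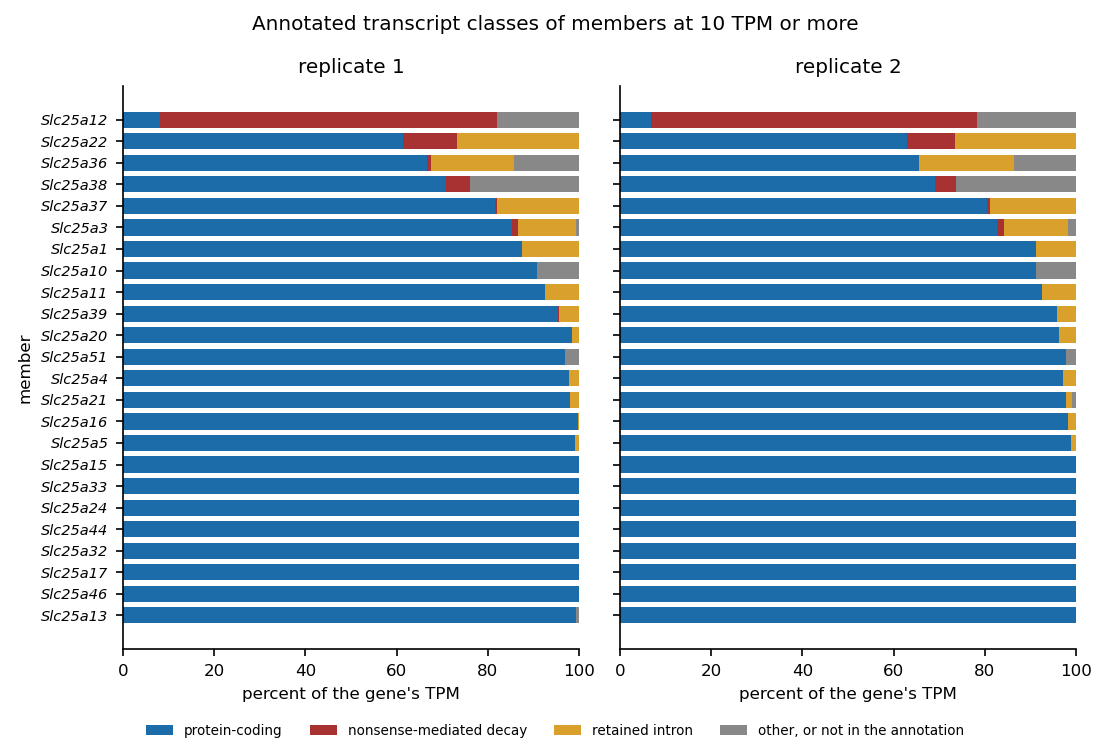
Share of each gene's TPM (percent, horizontal) carried by annotated transcript classes, for 24 members at 10 TPM or more, in replicate 1 (left) and replicate 2 (right). Slc25a12 stands out with a protein-coding share of 8.18% in replicate 1 and 6.87% in replicate 2, followed by Slc25a22, Slc25a36 and Slc25a38.

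Slc25a3 has alternative coding exons of similar sequence, one of which, exon A, is known from heart and skeletal muscle, while exon B is the widespread form. The exons share 65.9% of bases. Capitals mark bases with no identical partner in their alignment. Exon A (chr10:91122207-91122331, minus strand, 125 bases) occurs in transcript Slc25a3-206. Exon B (chr10:91121922-91122043, minus strand, 122 bases) occurs in Slc25a3-201 and Slc25a3-203.
Slc25a3 exon A: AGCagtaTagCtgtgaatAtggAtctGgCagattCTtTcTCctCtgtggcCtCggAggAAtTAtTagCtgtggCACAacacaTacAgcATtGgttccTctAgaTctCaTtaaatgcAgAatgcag
Slc25a3 exon B: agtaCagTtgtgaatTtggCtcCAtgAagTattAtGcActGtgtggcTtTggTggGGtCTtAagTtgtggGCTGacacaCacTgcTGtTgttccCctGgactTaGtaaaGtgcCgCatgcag
The leading transcript, Slc25a3-201, with exon B, had 303 TPM (deposited interval 287 to 303) in replicate 1 and 309 TPM (291 to 308) in replicate 2. The exon A transcript had 11.0 TPM (5.17 to 16.6) in replicate 1 and was listed at 0 in replicate 2 (1.9e-05 to 3.58). Its estimated count in replicate 1 was 352, with a posterior SD of 88.9 counts, and the posterior mean in replicate 2 was 40.3 ± 34.8 counts. The deposited intervals of the libraries did not overlap for this transcript. For the exon B transcript Slc25a3-203, of similar level, they did overlap (13.0 TPM in replicate 1 and 10.9 TPM in replicate 2). Slc25a3-206 also ends in a shorter last exon than Slc25a3-201 (333 against 551 bases). The heart muscle markers were higher in replicate 1 as well, as given above, and their part in this result was not tested.

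**Figure D5:**
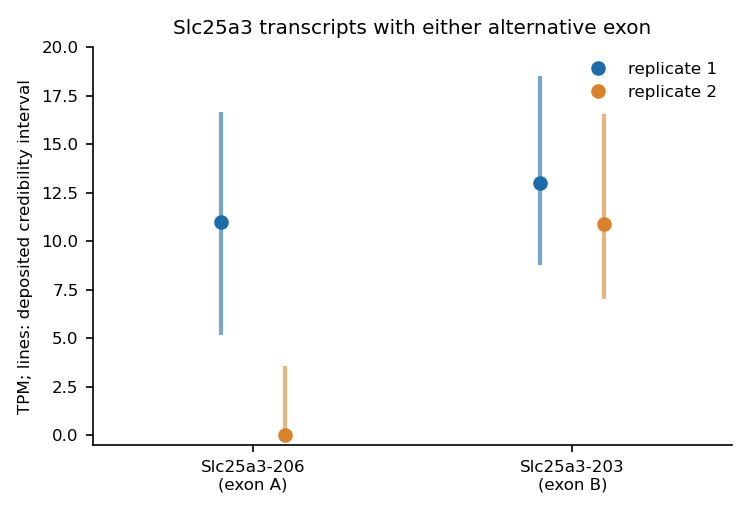
TPM (vertical) of the Slc25a3 transcripts with exon A (Slc25a3-206) and exon B (Slc25a3-203), in replicate 1 (blue) and replicate 2 (orange), with the deposited credibility intervals as lines. The exon A transcript stands at 11.0 TPM in replicate 1 and at 0 in replicate 2, and the exon B transcript Slc25a3-203 at 13.0 and 10.9 TPM. The leading transcript with exon B, Slc25a3-201, is not drawn (303 TPM in replicate 1 and 309 TPM in replicate 2).

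Some deposited isoform shares differed between the libraries in transcripts that are hard to separate. Slc25a51-202 took 30.8% of its gene in replicate 1 and 0.58% in replicate 2, while Slc25a51-201 took 53.2% and 81.6%. By the deposited posterior mean the shares hardly moved, with 38.1% in replicate 1 and 33.4% in replicate 2 for Slc25a51-202 and 45.5% and 48.4% for Slc25a51-201, so the shift is in the point estimate. These transcripts have 4438 and 4433 bases, and both are protein-coding. In Slc25a44, which has 4 annotated transcripts, the leading one took 41.6% in replicate 1 and 68.3% in replicate 2, and 41.0% and 62.7% by the posterior mean. The gene totals of both members differed by less than 1.5-fold.

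Shared reads limit a few other members. Without a stated strand, reads from a gene and an overlapping gene on the opposite strand cannot be told apart. The largest overlap was that of Slc25a35, where 31.3% of exon bases are shared with Rangrf, whose own level was 74.7 TPM in replicate 1 and 76.3 in replicate 2. The level of Slc25a35, 1.03 and 1.39 TPM, is therefore uncertain. Slc25a11 shares 8.92% of exon bases with Rnf167 (87.3 TPM in replicate 1 and 91.3 in replicate 2), and Slc25a33 shares 14.9% with an antisense gene that had 9.05 counts in replicate 1 and none in replicate 2. Slc25a25 (649 and 724 counts) shares 4.82% with Naif1, which had 483 counts in replicate 1 and 374 in replicate 2. Slc25a26 (269 and 207 counts) shares 7.49% with Lrig1, which had 243 and 204 counts. The posterior SD of the estimated count was 4.90% of the count of Slc25a35 in replicate 1.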

How the data were processed

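Values were deposited per gene and per transcript for each library. Reads were assigned on mouse assembly mm10, per the labels, and the deposited text notes name GENCODE release M4. Aligner and quantifier: not given in the sources used here. Estimated counts, deposited by the authors, come from a model that divides reads among genes, so they can be fractional. The authors also deposited TPM and FPKM values, and the percent of each gene's TPM carried by each transcript, per the file headers. The deposited credibility intervals, whose level is not given, belong to posterior mean values, so a TPM can lie outside its interval (719 TPM of Slc25a5 in replicate 1, above an upper bound of 713).

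Symbols, classes, coordinates and coding sequences came from GENCODE release M21 (GRCm38, the same assembly), matched on the unversioned Ensembl identifier, and 884 of 43346 mouse genes had no match. Protein identity was computed from translated coding sequences by global alignment (Biopython 1.88), near-identical copies with BLAST 2.17.0.

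No condition test was possible. The smallest p that an exact sign-flip test could give with 2 libraries is 0.5, so none is given. Ratios between libraries used counts rounded for scaling with edgeR 4.0.16 (R 4.3.3), with spike-ins left out, a pseudocount of 0.5 counts and 95% exact binomial intervals. Pairs used TPM with a pseudocount of 0.1. Alternatives included DESeq2 1.42.0 size factors. Reads carried no molecular identifiers, so intervals and limits describe counting error alone. The interval step was checked on simulated data. Python 3.11.15 with pandas 2.3.3, scipy 1.17.1 and matplotlib 3.10.9 did the rest.

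The members and lists were chosen with earlier results of these data known. Values are given for the 10 most abundant members, the iron, glutathione and glycine carriers, both genes of each pair, members that differ between libraries, members under a TPM of 1, and members at 10 TPM or more with a non-coding share of 25% or more. From each other list the 3 most abundant genes and those under a TPM of 1 are named, and remaining members are given by mean or count. The values of 1 member are not reported here, and it enters the family's counts and sums only. Slc25a3 exons and the shares of Slc25a51 and Slc25a44 were chosen after their values were seen.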

Additional observations from a re-analysis of the deposited data

How the results depend on the processing

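The number of detected members stayed between 37 and 40 under other thresholds, units and single libraries. The number of ordered pairs ranged from 18 to 21, but several settings could not test the full rule. With a pseudocount of 0, pairs with a TPM of 0 had no ratio and dropped out, which gave the 18. With estimated counts, and with protein-coding transcripts alone, the intervals were not used. A single library has no gap between libraries, and FPKM rescales TPM within a library, which keeps the order. The family median of 13.0 TPM became 21.5 TPM over detected members alone, 14.9 TPM on mouse genes without spike-ins and 9.515 FPKM in place of TPM. The family share of 0.330% became 0.374% as estimated counts, with no correction for length. Estimated counts also turned the pair of Slc25a38 and Slc25a37 round (log2 ratio -1.68). The 1 member called different between the libraries became 0 at 2-fold, 0 with a minimum mean of 100 counts and 5 without a minimum count. At a mean TPM of 1 or more, the leading transcript was the same in 38 of 39 members, counting those with a single transcript. Of the 39, 8 had a non-coding share of 25% or more. Counting protein-coding transcripts alone was added after seeing the data and left 37 members detected. No paired analysis was possible because there is a single group. Of the 8 members under a TPM of 1, Slc25a27 had the most counts, 58 in replicate 1 and 53 in replicate 2. Depth limits the others of the 8, whose counts were at most 24. With 2 libraries, no setting gives an error beyond these pools.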

Other observations

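Transcript length and the ratio between the libraries were weakly related over all genes. Over the 11519 protein-coding genes averaging at least 100 counts, Spearman's rho between effective length and the log2 ratio of replicate 1 to replicate 2 was -0.13, across genes that share the same libraries. Over the 36 members with as many counts it was -0.08. The 7 of these members shorter than 1500 bases had a median log2 ratio of -0.04, and so did the 10 members of 3000 bases or more. Over protein-coding genes the matching medians were 0.03 for 2564 short genes and -0.03 for 4267 long ones. These values are a description with no test.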
